A study of Homo sapiens with 4 samples.

Results

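HaCaT cells are a spontaneously immortalised line of human epidermal keratinocytes. The study made a pair of lentiviral HaCaT lines: a negative control line (NC) and a line that overexpresses TCN1 (TCN1_OE), the gene of transcobalamin 1, a secreted protein that binds vitamin B12. Each line gave 2 polyA RNA-seq libraries, numbered 1 and 2 in their titles. The subject here is the replicate number: the 2 libraries titled as replicate 1, 1 of each line, were set against the 2 titled as replicate 2, so all 4 libraries of the series were used and no comparison of the lines was made. All 4 libraries come from cells of the same origin, carry a lentiviral vector and were grown in the same medium, per the labels' protocols. The labels do not say whether a line is 1 clone, whether the 2 libraries of a line were separate cultures, or whether a number was shared by cultures, RNA preparations or sequencing runs. These possibilities cannot be told apart. The p-values therefore reflect no more than how these 4 libraries scatter, and that scatter may be technical.

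A keratinocyte of the basal epidermis is held to its basement membrane by hemidesmosomes, to its neighbours by desmosomes, and is kept stiff by keratin filaments. Notch and Wnt signals steer whether it divides or differentiates. The share of a gene's fragments that reaches the sequencer depends in part on base composition, since fragments rich in guanine and cytosine (GC) melt and amplify differently from fragments rich in adenine and thymine. This dependence is known to vary from one library preparation to the next.

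The libraries of replicate 1 were the deeper ones in both lines. NC held 19973550 counts in replicate 1 and 11593377 in replicate 2, and TCN1_OE held 16586500 and 14756073. Keratinocyte markers made up the identity of all 4 libraries: the 10 markers summed to between 7780 and 8989 FPKM (fragments counted per kilobase of gene, scaled to the library total), and KRT5 and KRT14, the basal keratin pair, led them. Markers of dermal fibroblasts, melanocytes, immune cells and endothelial cells summed to at most 3.09 FPKM in any library. The second principal component of depth-scaled log2 counts, with 33.2% of the variance, put both libraries of replicate 1 on one side and both of replicate 2 on the other.

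The sequences below are 60-base coding windows of genes that the results turn on, read from GENCODE 29 transcripts (GRCh38) and chosen to match the GC content of the whole transcript as closely as any window of 1 exon could. Capitals mark G and C. They are shown because base composition was the feature that most clearly ordered the replicate difference. The 4 genes of the first group were lower in replicate 1. AGRN encodes agrin, a proteoglycan of basement membranes, and was picked after its values were seen; its window lies at chr1:1020279-1020338 (+ strand, exon 1). LAMA5 encodes a laminin chain (chr20:62362455-62362514, - strand, exon 2), ITGB4 the beta subunit of the hemidesmosomal integrin (chr17:75727441-75727500, + strand, exon 4) and NOTCH1 a Notch receptor (chr9:136544037-136544096, - strand, exon 2). These 4 transcripts hold between 62.9% and 67.6% GC.
AGRN: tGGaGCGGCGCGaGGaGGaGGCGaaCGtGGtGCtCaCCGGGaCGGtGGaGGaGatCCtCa
LAMA5: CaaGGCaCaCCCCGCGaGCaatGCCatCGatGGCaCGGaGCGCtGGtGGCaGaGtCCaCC
ITGB4: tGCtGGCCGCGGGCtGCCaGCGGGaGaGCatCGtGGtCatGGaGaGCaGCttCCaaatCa
NOTCH1: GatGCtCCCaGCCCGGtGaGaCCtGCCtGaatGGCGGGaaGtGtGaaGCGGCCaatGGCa

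The next 3 genes were higher in replicate 1 and act in mitosis. KIF23 encodes a kinesin of the central spindle (chr15:69417400-69417459, + strand, exon 3), CENPE a kinetochore kinesin (chr4:103196791-103196850, - strand, exon 2) and CDK1 the kinase that starts mitosis (chr10:60784797-60784856, + strand, exon 3). Their transcripts hold between 35.3% and 42.3% GC.
KIF23: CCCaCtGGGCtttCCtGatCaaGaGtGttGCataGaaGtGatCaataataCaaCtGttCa
CENPE: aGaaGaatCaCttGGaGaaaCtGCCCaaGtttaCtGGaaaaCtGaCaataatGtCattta
CDK1: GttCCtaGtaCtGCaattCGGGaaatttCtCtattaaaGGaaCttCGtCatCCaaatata

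The last 2 genes were higher in replicate 1 although their transcripts hold 60.6% and 56.2% GC, and they stand for what a correction for GC left. RPLP2 encodes a protein of the ribosomal stalk (chr11:810260-810319, + strand, exon 2) and S100A10 a small protein that binds annexin (chr1:151983224-151983283, - strand, exon 3).
RPLP2: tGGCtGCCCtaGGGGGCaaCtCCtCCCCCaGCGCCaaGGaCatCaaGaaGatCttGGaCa
S100A10: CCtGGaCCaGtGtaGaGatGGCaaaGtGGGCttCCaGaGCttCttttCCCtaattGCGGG

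Between the replicates, 946 of 15113 tested genes were higher and 1612 lower in replicate 1 by edgeR's quasi-likelihood test with line as a block (adjusted p under 0.05), which is 6.26% and 10.7% of the genes tested. All 946 and all but 3 of the 1612 moved the same way in both lines. With 1 pair of libraries per line, the test favours genes whose pairs agree, so this comes largely with the selection. Over all genes tested, the same sign was seen in 66.9%. The differences were small: the median was 0.21 for the higher genes and -0.28 for the lower ones on the log2 scale, and 123 of the 2558 called genes reached 1.5-fold. The split was 63.0% lower with the scaling used and 51.9% lower with upper-quartile factors.

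The number of calls depended on the test more than the direction did. With 1 residual degree of freedom, edgeR leans on the spread shared across genes. DESeq2 with the same terms called 78 genes higher and 385 lower. Limma on log2(FPKM + 0.5) called 0 in either direction, with 3295 genes at an unadjusted p under 0.05. EdgeR without the line block also called 0, with 1293 genes at an unadjusted p under 0.05. These limits hold for every call below: each one is edgeR's, and none stands in the last 2 fits. An exact permutation test of single genes cannot go below 0.333 for 2 libraries against 2. With line as a block, where numbers are swapped only within a line, it cannot go below 0.5.

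The direction of the replicate difference was shared by the lines most clearly among well-measured genes. Among 4215 genes at or above 10 FPKM on average, 80.4% had the same sign in NC and TCN1_OE, and the log2 ratios of the lines, which share no library, correlated across these genes with a Pearson r of 0.66 and a Spearman rho of 0.75. Over all 15113 genes the same sign was seen in 66.9% and r was 0.15. Genes are not independent replicates, so these are descriptions. The plot of the ratios of the lines shows that the genes lie along a diagonal and that their GC content changes along it.

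**Figure D1:**
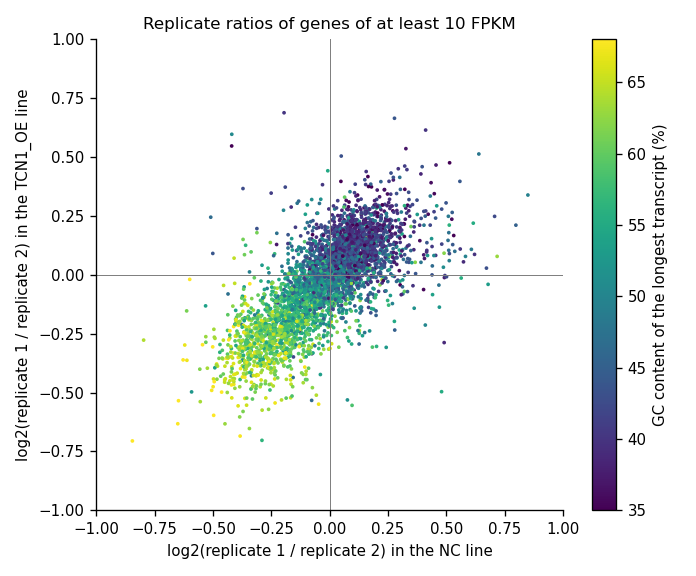
Log2 ratio of replicate 1 to replicate 2 in the NC line (x axis) and in the TCN1_OE line (y axis) for 4203 genes of at least 10 FPKM; each point is a gene, coloured by the GC content of its longest transcript in percent, and 4 genes lie beyond the axes. GC-rich genes gather at the lower left, lower in replicate 1 in both lines, and GC-poor genes at the upper right.

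GC content ordered the whole transcriptome. The tested genes were put into 10 classes of equal size by GC content. In the class with the least GC (25.1% to 38.5%) the median log2 fold change was 0.15, and it fell from class to class to -0.29 in the one with the most (61.2% to 74.9%). The lines gave nearly the same curve: 0.14 to -0.28 in NC and 0.16 to -0.31 in TCN1_OE. Of 1936 tested genes with over 60% GC, 814 were lower and 4 higher in replicate 1, whereas of 2355 genes with under 40% GC, 453 were higher and 3 lower. Across genes of at least 10 FPKM, the Spearman correlation of the log2 ratio with GC content was -0.72 in NC and -0.78 in TCN1_OE. The mean GC content of the transcripts, weighted by counts, was 48.6% and 48.7% in the 2 libraries of replicate 1 and 49.3% and 49.5% in the 2 of replicate 2. What made GC content differ between the replicates was not tested.

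**Figure D2:**
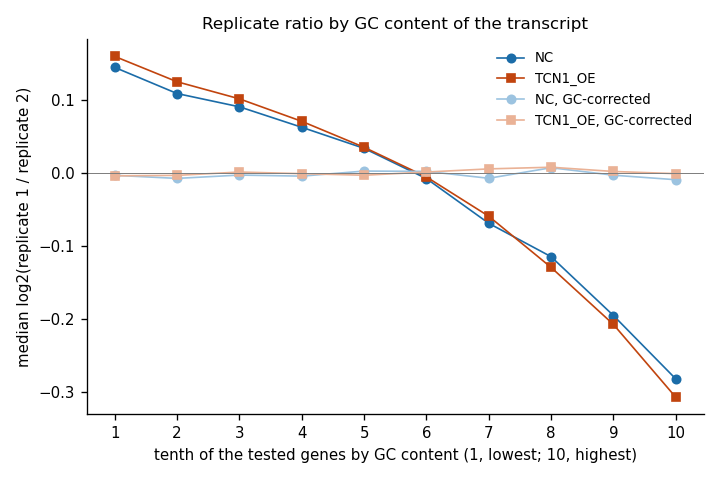
Median log2 ratio of replicate 1 to replicate 2 (y axis) in 10 equal classes of the tested genes by GC content of the longest transcript (x axis), for NC (circles) and TCN1_OE (squares), before (dark) and after (pale) a correction for GC. The uncorrected medians fall from 0.14 and 0.16 to -0.28 and -0.31, and the corrected ones lie near 0 by construction.

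A fit with a per-library correction for GC, made on the 14623 genes with a GC value, called 130 genes higher (0.889%) and 101 lower (0.691%) in replicate 1. Among genes of at least 10 FPKM these shares were 2.71% and 1.62%, against 14.3% and 24.7% without the correction. Of the 130 and 101, 84 and 86 were also called without the correction. The correction removes any biological difference that runs along GC content as well as a technical one, so counts or medians with the correction are given for the groups that follow. Groups are lists of genes by function; a list's members were tested with all other genes, and its median is read against the median of all genes tested, 0.01. A list was described where its median lay apart from that of all genes on the same side in both lines, or where its members were called more often than genes in general. Genes of at least 10 FPKM were called more often than the rest, so a list of such genes with a share near 14.3% higher or 24.7% lower does not stand apart from them.

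Most called genes of keratinocyte anchorage were lower in replicate 1. Among 20 tested genes of basal keratinocytes and hemidesmosomes, 11 were lower and 3 higher, where 10.7% and 6.26% of all genes tested were, and the median was -0.13 in each line. ITGB4 stood at 102 and 111 FPKM in replicate 1 of NC and TCN1_OE and at 130 and 144 in replicate 2 (log2 fold change -0.38, SE 0.03, edgeR adjusted p = 1.1e-14). Both libraries of replicate 1 lay below both of replicate 2. PLEC, the linker of keratin filaments to the integrin, fell by 0.36 on the log2 scale, and LAMB3, a chain of the anchoring laminin, by 0.23. KRT14 ran at 3096 and 3109 FPKM against 3403 and 3568, and its partner KRT5 at 2040 and 2228 against 2210 and 2428. After the GC correction the median of the list was -0.01, with 1 member called, higher, where 0.889% and 0.691% of all genes were called higher and lower. KRT14 and KRT5 then stood at 0.04 and 0.01.

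Of the 10 keratinocyte markers, 6 were called by edgeR, all lower in replicate 1, where 10.7% of all genes tested were lower. The summed level of the 10 was 7780 and 7962 FPKM against 8586 and 8989. SFN, an epithelial 14-3-3 protein, fell by 0.23 and TRIM29, a marker of stratified epithelia, by 0.20 on the log2 scale. The markers hold a median of 56.1% GC. With the correction 1 of the 10 remained called, KRT6A. Of the markers of other cell types, 2 at low levels were called: the endothelial VWF, at 0.75 and 0.88 FPKM against 1.12 and 1.28, and the fibroblast collagen COL1A1, at -0.37 on the log2 scale.

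Cell junction genes held members in both directions. In the junction list, 7 of 28 were lower and 2 higher, and the 25.0% lower lies near the 24.7% of all genes of at least 10 FPKM. The median was 0.01, and the lines differed in its sign (-0.03 in NC, 0.02 in TCN1_OE). JUP, plakoglobin of desmosomes and adherens junctions, stood at 440 and 455 FPKM in replicate 1 and at 541 and 562 in replicate 2. NECTIN1, an adhesion molecule of adherens junctions, fell by 0.29, and the desmosomal plaque proteins PKP3 and PKP1 by 0.33 and 0.19 on the log2 scale. DSG2, a desmosomal cadherin with 42.0% GC, was higher by 0.11. Of 35 genes of keratinocyte differentiation, 9 (25.7%) were lower and 1 higher (median -0.08; -0.17 in NC and -0.06 in TCN1_OE). EVPL and PPL, envoplakin and periplakin of the cornified envelope, fell by 0.38 and 0.24, and KRT13, a keratin of stratified mucosa, by 0.15 on the log2 scale. CSTA, a protease inhibitor of the envelope with 35.9% GC, was higher in replicate 1 by 0.37. After correction edgeR called 0 members of the junction list, with 1 higher and 8 lower at an unadjusted p under 0.05. It called 1 member of the differentiation list, lower: TGM1, with 16 to 103 counts per library.

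Called cytoskeletal and matrix genes were mostly lower. Of 31 genes of the actin cytoskeleton, 11 (35.5%) were lower and 5 higher (median -0.03). FLNA, which crosslinks actin filaments, stood at 108 and 77.2 FPKM in replicate 1 and at 135 and 96.2 in replicate 2, a fall of 0.34 on the log2 scale in each line. LASP1 fell by 0.29, FSCN1, a bundler of actin in protrusions, by 0.31, and MYH9, non-muscle myosin, by 0.24. Of 40 TGF-beta and matrix genes, 9 (22.5%) were lower and 1 higher (median -0.06). LAMA5 ran at 72.7 and 91.2 FPKM against 95.5 and 117, MMP14, a membrane-bound matrix protease, fell by 0.29 and COL4A2, a basement membrane collagen, by 0.37 on the log2 scale. AGRN, which is not in the matrix list, stood at 64.3 and 70.0 FPKM against 90.2 and 96.9 (log2 fold change -0.50, SE 0.03, edgeR adjusted p = 1.4e-18). After correction AGRN was at -0.14 and LASP1 at -0.13, still called by edgeR (adjusted p = 0.0023 and 0.0096), whereas LAMA5 was at -0.06 and not called. In all, 2 actin genes were then called higher and 1 lower, and 1 gene of the matrix list, which does not hold AGRN, was called lower.

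Among the lists by function, the lowest medians were those of Notch and Wnt signalling. Of 20 Notch genes, 9 (45.0%) were called, all lower in replicate 1, where 10.7% of all genes tested were lower. The list's median was -0.19 (-0.15 in NC and -0.22 in TCN1_OE). Receptor NOTCH1 stood at 34.6 and 37.6 FPKM in replicate 1 and at 43.6 and 48.2 in replicate 2, and NOTCH3 at 9.60 and 13.8 against 12.6 and 18.4. JAG2, a Notch ligand, fell by 0.31 on the log2 scale. Of 22 Wnt genes, 5 (22.7%) were lower and 1 higher (median -0.16). WNT10A, a Wnt ligand of the epidermis, fell by 0.25, the co-receptor LRP5 by 0.30 and AXIN1, a scaffold of the complex that degrades beta-catenin, by 0.33, while the receptor FZD6, with 38.4% GC, was higher by 0.14. The median GC was 55.2% for the Notch list and 54.2% for the Wnt list, against 48.0% for all genes tested. With the correction the medians were -0.03 and -0.04 and edgeR called 0 members of either list, with 4 Notch genes and 1 Wnt gene lower at an unadjusted p under 0.05.

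Called metabolic genes under sterol control, of glycolysis and of amino acid transport were mostly lower too, at shares of each list that, but for 1 list, were below the 24.7% of all genes of at least 10 FPKM. FASN, fatty acid synthase, stood at 76.9 and 77.4 FPKM in replicate 1 and at 102 and 104 in replicate 2 (log2 fold change -0.44, SE 0.03, edgeR adjusted p = 1.6e-16). SREBF1, the transcription factor of lipid synthesis, fell by 0.38 and ACLY, which supplies acetyl-CoA, by 0.18 on the log2 scale. Of 19 fatty acid synthesis genes 4 were called and of 26 cholesterol genes 6, all lower (21.1% and 23.1%). SREBF2, the transcription factor of sterol synthesis, and MVD, an enzyme of the mevalonate pathway, fell by 0.22 and 0.37. Of 40 genes of glycolysis and hypoxia, 9 (22.5%) were lower and 1 higher: phosphofructokinase genes PFKL and PFKP fell by 0.36 and 0.20, and the glucose transporter SLC2A1 by 0.28. In the list of 27 ATF4 and amino acid response genes, 9 were lower and 2 higher, and the 33.3% lower is the exception. The members named are transporters: SLC7A5 and SLC3A2, the 2 chains of a carrier of large neutral amino acids, fell by 0.26 and 0.19, and SLC7A1, a carrier of cationic amino acids, by 0.15. With the GC correction FASN, SREBF1 and SLC2A1 remained called by edgeR at -0.12, -0.11 and -0.17 (adjusted p = 0.0096, 0.031 and 0.0062), and the medians of the fatty acid and cholesterol lists were both -0.07. The corrected calls were 2 lower in the fatty acid list, 2 higher and 1 lower in glycolysis and 2 higher in the ATF4 list. EdgeR then called 0 cholesterol genes, with 0 higher and 3 lower at an unadjusted p under 0.05.

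Shares called lower in the lysosomal, autophagy, stress-signal and nuclear regulator lists lay below the 24.7% of genes of at least 10 FPKM. They lay above the 10.7% of all genes tested. Median levels of these lists ran from 8.66 to 13.7 FPKM, so neither share is matched to them. Of 38 lysosome genes 9 (23.7%) were lower and 1 higher: GRN, progranulin, fell by 0.35, CTSD, a lysosomal protease, by 0.26 and PSAP, a precursor of sphingolipid activators, by 0.12 on the log2 scale. Exons of other genes cover 52.7% of the exonic bases of CTSD, so its reads may include theirs. Autophagy genes were split, 4 higher and 3 lower of 23, with ATG2A, a lipid transfer protein, at -0.43 and TAX1BP1, a receptor for cargo, at 0.21. Of 28 immediate early and AP-1 genes 6 were called, all lower, IER5, JUNB, FOSL2 and JUND among them, at -0.38, -0.26, -0.19 and -0.40. Of 25 p53 targets 5 were lower and 1 higher, led by PHLDA3 at -0.32 and the cell cycle inhibitor CDKN1A at -0.23. Of 42 chromatin regulators with long transcripts 9 (21.4%) were lower and 4 higher, with a median of 0.02. IER5, with 49.8% GC, stood at -0.37 after the correction (edgeR adjusted p = 3e-06), while JUNB moved to 0.05. With the correction 2 lysosome genes were called, both lower, 1 autophagy gene, higher, and 1 immediate early gene, IER5. EdgeR called 0 p53 targets, with 0 higher and 2 lower at an unadjusted p under 0.05, and 0 chromatin regulators, with 1 higher and 2 lower.

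**Figure D3:**
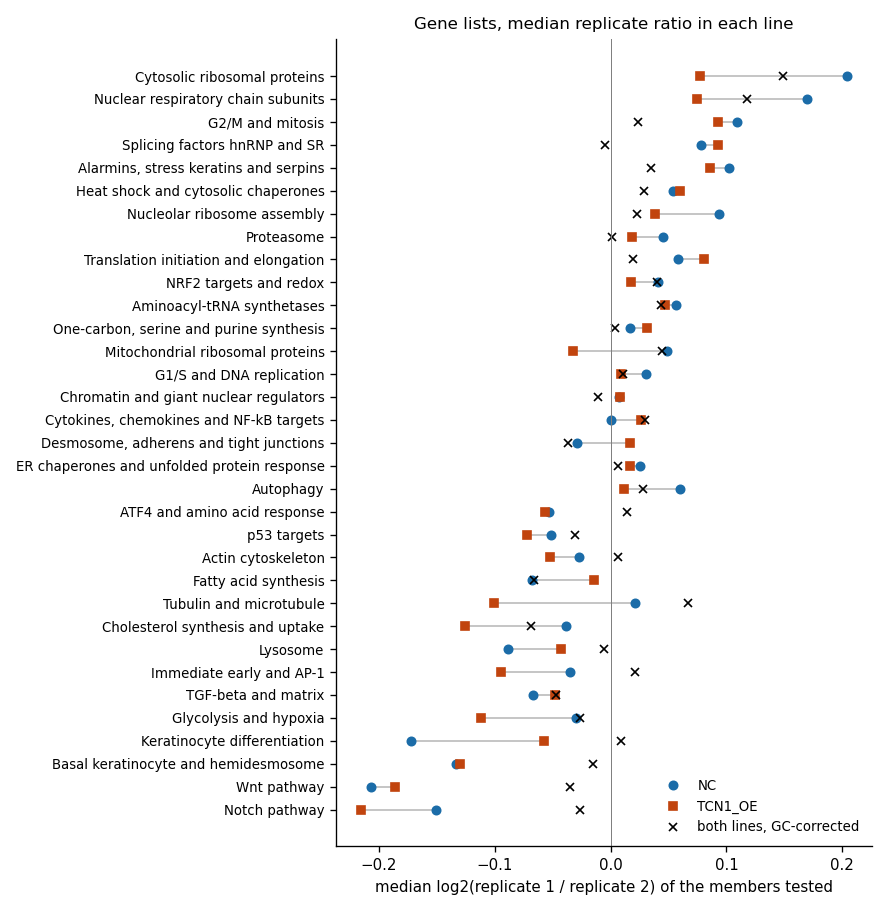
Median log2 ratio of replicate 1 to replicate 2 over the tested members of each described list of genes by function, marker lists left out (x axis), in NC (circles) and TCN1_OE (squares), with the GC-corrected median over both lines (crosses). Among the lists plotted, Notch, Wnt and basal keratinocyte lie lowest and move towards 0 with the correction; cytosolic ribosomal proteins and nuclear respiratory chain subunits lie highest and stay at 0.15 and 0.12.

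Called genes of mitosis were mostly higher in replicate 1. Of 51 tested genes of G2/M and mitosis, 22 (43.1%) were higher and 3 lower, with a median of 0.11 (0.11 in NC and 0.09 in TCN1_OE). KIF23 stood at 44.8 and 40.4 FPKM in replicate 1 of NC and TCN1_OE and at 38.5 and 31.9 in replicate 2 (log2 fold change 0.26, SE 0.04, edgeR adjusted p = 1.4e-06). CDK1 stood at 46.9 and 37.6 FPKM against 39.2 and 31.3, higher in replicate 1 within each line although the 2 replicates overlapped across lines. TTK, a kinase of the spindle checkpoint, was higher by 0.30 and CENPE by 0.27. CDC25B, a phosphatase that activates CDK1 and whose transcript holds 59.3% GC, fell by 0.20. Genes of G1/S and DNA replication gave 12 (23.1%) lower and 3 (5.77%) higher of 52, although their median was 0.03. TK1, thymidine kinase, and CHAF1A, a histone chaperone, fell by 0.26 and 0.31. Both shares of the replication list lay below the 24.7% lower and 14.3% higher of all genes of at least 10 FPKM. The median GC was 42.6% in the mitosis list and 47.7% in the replication list. With the correction the medians were 0.02 and 0.01, and edgeR called 3 mitosis genes, KIF23 among them at 0.17. It called 0 replication genes, with 5 higher and 3 lower at an unadjusted p under 0.05.

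RNA processing and protein synthesis held members in both directions, ordered by GC content. Of 33 splicing factors 14 were higher and 6 lower: HNRNPA2B1, SRSF3 and HNRNPDL, with 39.3% to 44.6% GC, were higher by 0.15, 0.19 and 0.21, and PTBP1, with 61.7%, fell by 0.18. HNRNPA0 went against its base composition, with 41.1% GC and a fall of 0.18, and stood at -0.29 after the correction (edgeR adjusted p = 4.3e-05). Of 36 translation factors 14 were higher and 5 lower. The elongation factor EEF2, with 59.9% GC, stood at 590 and 589 FPKM in replicate 1 and at 688 and 690 in replicate 2, while EEF1A1 and EIF2S2, with 46.1% and 45.2%, were higher by 0.09 and 0.20. Nucleolar assembly factors gave 6 (11.3%) higher and 8 (15.1%) lower of 53, with NPM1, nucleophosmin, at 0.21 and BOP1, MYBBP1A and NOL6 at -0.41, -0.39 and -0.47. Of 20 aminoacyl-tRNA synthetases 5 (25.0%) were higher and 1 lower. Mitochondrial ribosomal proteins gave 10 (14.7%) higher and 5 (7.35%) lower of 68, and one-carbon and purine genes 2 (7.41%) higher and 7 (25.9%) lower of 27. Among all genes of at least 10 FPKM, 14.3% were higher and 24.7% lower. The share higher of the mitochondrial ribosomal proteins and the share lower of the one-carbon list lay near these. Both nucleolar shares lay below them. The splicing and translation lists, with 42.4% and 38.9% higher, lay above 14.3%. With the correction the called members were 1 higher and 2 lower of the splicing factors, 2 higher of the translation factors, 2 higher and 1 lower of the nucleolar factors and 1 higher of the mitochondrial ribosomal proteins. EdgeR then called 0 synthetases, with 2 higher and 0 lower at an unadjusted p under 0.05, and 0 one-carbon and purine genes, with 2 higher and 4 lower.

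Called genes of protein quality control and stress were mostly higher, but only the cytosolic chaperones and the alarmin list lay above the 14.3% called higher among all genes of at least 10 FPKM. Of 27 cytosolic chaperones 7 (25.9%) were higher and 2 lower: HSP90AA1, the inducible HSP90, was higher by 0.18 and HSPB1, a small heat shock protein with 64.3% GC, fell by 0.27. Of 24 endoplasmic reticulum chaperones and unfolded protein response genes 3 (12.5%) were higher and 2 lower, led by HSP90B1 at 0.24. Of 38 proteasome genes 5 (13.2%) were higher and 2 lower, with the core subunit PSMA4 at 0.20 and PSMD3 of the regulatory particle at -0.15. Among 24 alarmins, stress keratins and serpins 9 (37.5%) were higher and 4 lower. S100A10 stood at 473 and 463 FPKM in replicate 1 and at 374 and 372 in replicate 2, SERPINB2, an inhibitor of plasminogen activators, and SERPINB5, maspin, were higher by 0.39 and 0.14, and ANXA1, an annexin, by 0.22. Stress keratins KRT6A and KRT17 fell by 0.28 and 0.21. Cytokine genes gave 3 higher and 2 lower of 24: the chemokine CXCL8 ran at 13 and 12.7 FPKM against 8.97 and 8.96, BIRC3, an inhibitor of apoptosis, was higher by 0.39 and TNFAIP2 fell by 0.23. Lists of YAP and TEAD targets (2 higher and 3 lower of 25) and of the interferon response (1 higher and 4 lower of 40) met neither criterion. CXCL8 has 33.4% GC and was no longer called after the correction (0.31, edgeR adjusted p = 0.13). The corrected calls were 2 higher of the cytosolic chaperones, 1 higher of the endoplasmic reticulum list and 3 higher and 1 lower of the alarmin list. EdgeR then called 0 proteasome genes, with 5 higher and 3 lower at an unadjusted p under 0.05, and 0 cytokine genes, with 3 higher and 2 lower.

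Some redox genes were higher irrespective of GC. Of 35 NRF2 and redox genes 5 (14.3%) were higher and 6 (17.1%) lower, where 14.3% and 24.7% of all genes of at least 10 FPKM were. After the correction 5 were called, all higher, where 2.71% of all genes of at least 10 FPKM were called higher. Of the 843 of these with the highest levels, over 41.6 FPKM, 79 were called higher. The redox list's median level was 32.8 FPKM. With transcript length corrected as well, 3 redox genes were called higher. TXN, thioredoxin, stood at 578 and 567 FPKM in replicate 1 and at 435 and 472 in replicate 2 (log2 fold change 0.32, corrected 0.23). The metal-binding metallothioneins MT2A and MT1E, with 53.9% and 53.5% GC, were higher by 0.24 and 0.26. After the correction they were higher by 0.33 and 0.35. Their principal transcripts hold 63.0% and 59.5% GC, and a correction on those values was not run. Tubulin and microtubule genes gave 4 (23.5%) higher and 2 (11.8%) lower of 17, with opposite medians in the lines (0.02 in NC and -0.10 in TCN1_OE). TBCA, a tubulin chaperone, KIF5B, a kinesin, and DYNLL1, a dynein light chain, were higher by 0.34, 0.19 and 0.19, and TUBB4B fell by 0.11. DYNLL1 was the member still called, at 0.26.

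**Figure D4:**
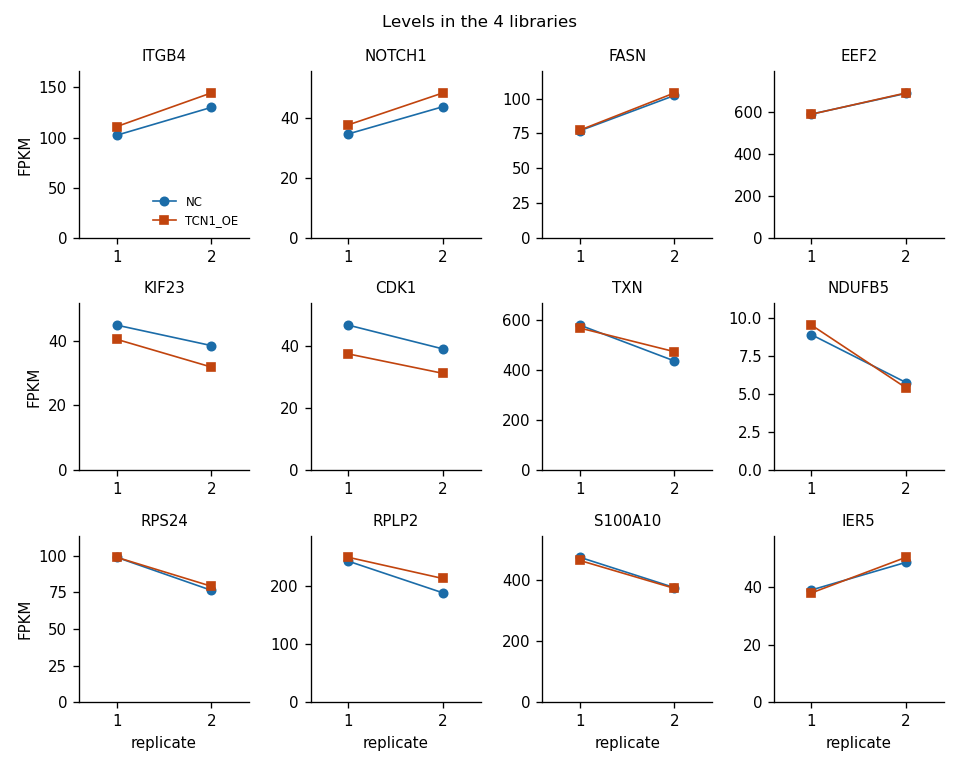
FPKM (y axis, from 0) in replicate 1 and replicate 2 (x axis) for 12 genes in NC (circles) and TCN1_OE (squares), each point 1 library. The first 4 genes and IER5 are lower in replicate 1 and the other 7 are higher in it within both lines; RPLP2 (60.6% GC), S100A10 and IER5 go against or apart from the GC trend.

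Cytosolic ribosomal proteins were the list with the most higher members. Of 75 tested, 35 (46.7%) were higher and 4 (5.33%) lower in replicate 1, where 6.26% and 10.7% of all genes tested were. Among all genes of at least 10 FPKM, 14.3% were higher and 24.7% lower. In both lines 53 of the 75 were higher, where 33.9% of all genes tested were. The median was 0.13, with 0.20 in NC and 0.08 in TCN1_OE. RPS24 stood at 98.8 FPKM in replicate 1 of both lines and at 76.3 and 79.1 in replicate 2. RPS26 stood at 112 and 106 FPKM against 82.2 and 82.3, and RPL19 at 393 and 389 against 328 and 332. Both libraries of replicate 1 lay above both of replicate 2 for these 3 genes. RPL37 and RPL23 were higher by 0.38 and 0.23 on the log2 scale. RPLP2 stood at 243 and 249 FPKM against 188 and 213 (log2 fold change 0.28, SE 0.04, edgeR adjusted p = 1.2e-07) despite its GC content. The list's median GC, 48.0%, equals that of all genes tested. After the correction its median was 0.15, with 29 members higher and 1 lower. Of all genes of at least 10 FPKM, 2.71% and 1.62% were then called higher and lower. Of the 843 of these with the highest levels, over 41.6 FPKM, 79 were called higher and 17 lower. As a share of all counts the ribosomal protein genes took 4.14% and 4.15% in replicate 1 and 3.71% and 3.91% in replicate 2. These genes have many processed pseudogenes, so how multi-mapped reads were counted bears on their values, and their levels are uncertain to that extent.

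Nuclear genes of the respiratory chain behaved alike. Of 69 tested, 19 (27.5%) were higher and 3 (4.35%) lower, where 6.26% and 10.7% of all genes tested were. Among all genes of at least 10 FPKM, 14.3% were higher and 24.7% lower. The list's median was 0.12 (0.17 in NC and 0.07 in TCN1_OE). NDUFB5, a subunit of complex I, stood at 8.93 and 9.56 FPKM in replicate 1 and at 5.77 and 5.43 in replicate 2 (log2 fold change 0.70, SE 0.08, edgeR adjusted p = 6.6e-09). UQCRB of complex III and COX7B of complex IV were higher by 0.38 and 0.32. CYC1, the cytochrome of complex III with 64.5% GC, fell by 0.26 and stood at 0.04 after the correction. The corrected median of the list was 0.12, with 7 members called, all higher. Of all genes of at least 10 FPKM, 2.71% were then called higher. The 12 mitochondrially encoded genes tested, by contrast, had 1 member called by edgeR, higher, with a corrected median of -0.01; they took 5.33% and 6.04% of counts in replicate 1 and 5.13% and 5.65% in replicate 2.

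Ribosomal protein and respiratory chain transcripts are short, with median lengths of 1041 and 1098 bases against 2864 for all genes tested. Once GC was corrected, the ratio followed transcript length. Among genes of at least 10 FPKM the corrected median was 0.07 in the class of 10 with the shortest principal transcripts (under 1.202 kb) and -0.04 in the class with the longest (over 6.457 kb), with 0.10 and 0.05 in NC and TCN1_OE for the shortest. Without ribosomal proteins the same medians were 0.06 and -0.04. Before the correction no such order was seen, with medians between -0.04 and 0.02 over the classes. A fit corrected for both GC and transcript length, chosen after seeing the data, gave 86 genes higher and 84 lower. In it the ribosomal proteins kept a median of 0.09 with 22 higher and 3 lower, and the respiratory chain a median of 0.07 with 5 higher and 1 lower. Transcripts under 1000 bases took 5.72% and 6.09% of counts in replicate 1 and 5.24% and 5.69% in replicate 2. The part that fragment length or RNA integrity plays in these values was not tested.

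**Figure D5:**
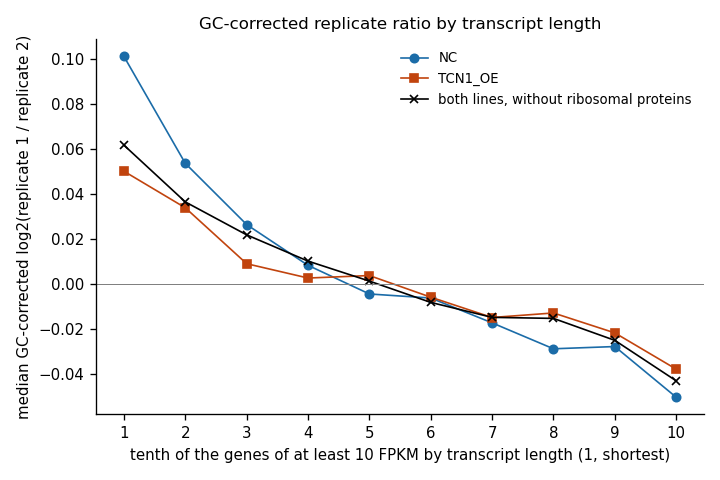
Median GC-corrected log2 ratio of replicate 1 to replicate 2 (y axis) in 10 equal classes of the genes of at least 10 FPKM by length of the principal transcript (x axis), in NC (circles), TCN1_OE (squares) and over both lines without ribosomal proteins (crosses). The medians fall from 0.10 and 0.05 in the shortest class to below 0 in the longest.

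The largest called differences among genes that averaged 5 FPKM or more in the replicate where they were higher included several with more than one possible source of reads. MAZ and C10orf88 reached that level through the higher replicate alone, with means of 4.24 and 4.39 FPKM over the 4 libraries. MIR205HG, the host transcript of an epithelial microRNA, stood at 83.0 and 102 FPKM in replicate 1 and at 52.6 and 70.3 in replicate 2 (log2 fold change 0.57, SE 0.04, edgeR adjusted p = 2.4e-15), and kept 0.56 after the correction. CENPK, a kinetochore protein, C10orf88, and the mitochondrial genes COX6A1 and ATP5MF were higher by 0.54, 0.58, 0.56 and 0.53. After the correction ATP5MF was still called by edgeR (0.70, adjusted p = 0.023), whereas CENPK (0.34, adjusted p = 0.075), C10orf88 (0.46, adjusted p = 0.17) and COX6A1 (0.45, adjusted p = 0.21) were not. Of the 12 largest increases, 6 were processed pseudogenes, such as RPL24P8 at 0.89, whose reads can come from their parent genes. On the lower side, TMEM238, with 73.7% GC, stood at 23.5 and 27.9 FPKM against 41.8 and 45.0 (log2 fold change -0.78). CITED4, a transcriptional co-activator, with 73.5% GC, fell by 0.59, the zinc finger factor MAZ by 0.81 and the mitochondrial nuclease ENDOG by 0.65. Other genes cover 58.3% of the exonic bases of MAZ and 39.2% of those of ENDOG. TRAPPC6A, MIIP, PLEKHN1 and CCDC9 fell by 0.67, 0.61, 0.61 and 0.59, and all 4 have over 60% GC. After the correction TMEM238 stood at -0.32, CITED4 at -0.13, MAZ at -0.48 and ENDOG at -0.29, and edgeR called none of these 8 genes (adjusted p from 0.097 for MAZ to 0.66 for CITED4). The pseudogene TCEA1P2 fell by 0.65 with 41.7% GC, mostly in TCN1_OE, where its ratio was -1.03 against -0.20 in NC.

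Differences of at least 2-fold were found for 59 called genes, and all of them were thinly counted. Their median was 28 counts per library, and the highest mean was 177, against a median of 313 for all genes tested. Several are genes that every cell uses, named here after their values were seen. UBE2A, a ubiquitin-conjugating enzyme, was counted 18 and 25 times in replicate 1 of NC and TCN1_OE and 210 and 455 times in replicate 2. CDK7, a kinase of transcription initiation, was counted 33 and 188 times against 4 and 4. POLR2A, the largest subunit of RNA polymerase II, had between 5 and 32 counts in the 4 libraries. The list members NDUFS1, GAA and TGM1 were of this kind, at 1.30, -3.50 and -2.20 on the log2 scale and between 6 and 295 counts. These genes are among the GC-corrected calls counted above for the respiratory chain, lysosome and differentiation lists (edgeR adjusted p = 0.0037, 1.2e-05 and 0.0015). Whether reads of these genes were assigned elsewhere or left out at counting was not tested.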

How the data were processed

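PolyA RNA of 2 NC and 2 TCN1_OE libraries was sequenced after preparation with a kit that does not mark strand, so reads of overlapping or antisense genes cannot be told apart. The submitters' processing notes name HISAT2 (version not given in the sources used here), HTSeq 0.13.5 and the build GRCh38. Per the file headers, the deposited files give a raw count and an FPKM value for each of 29209 genes; the deposited FPKM follows from the count, a gene length and the library total. All rows name a gene. Depth was 11593377 to 19973550 counts per library.

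Counts were tested with edgeR 4.0.16 (R 4.3.3): TMM factors, filterByExpr with a minimum count of 10, robust quasi-likelihood fits with line as a block and replicate number as the term tested, and Benjamini-Hochberg adjustment over all 15113 genes, with a threshold of 0.05. The standard error is the size of the log2 fold change divided by the square root of F. Within-line log2 ratios used depth-scaled log2 counts with a prior count of 2. Line plus replicate leaves 1 residual degree of freedom, so whether the replicate difference differs between lines could not be tested. The labels do not say what same-numbered libraries of the 2 lines share.

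GC content came from each gene's longest GENCODE 29 transcript (14623 genes tested, 96.8%) and length from its principal transcript. The windows shown and the GC given with them are of principal transcripts. For some genes the GC of the 2 transcripts differs, as for COX6A1 (40.8% in the longest, 53.5% in the principal). The correction fitted, per library, a lowess curve (span 0.3) of log2 deviation from the gene mean on GC and entered it as an offset. Alternatives were DESeq2 1.42.0, limma 3.58.1 on log2(FPKM + 0.5), RLE and upper-quartile factors, other filters, no line block, each library left out, thinning to equal depth, and offsets for gene length, GC and GC with transcript length. The fits were tested on simulated counts with 200 changed genes and with an added GC trend.

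Members and gene lists (42 functions, 5 sets of cell type markers) were chosen with earlier results of these data known. Named are the 12 largest called changes per direction with a mean of 5 FPKM or more in the replicate where the gene is higher and the same direction in both lines, of which some are left out, and the members of lowest adjusted p, at most 6, of each list whose median lay 0.15 from that of all genes on the same side in both lines, or with at least 3 members called in 1 direction at 1.5 times the share of all genes. Of the 47 lists, 36 met this; genes outside the rule are said to be so, and some that it names are not reported here.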

Additional observations from a re-analysis of the deposited data

Results flagged for a closer look

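The replicate difference had opposite signs in the 2 lines for the medians of 3 described lists. The median log2 ratio of the mitochondrial ribosomal proteins was 0.0487 in NC and -0.03 in TCN1_OE, that of the desmosome and junction genes was -0.0293 in NC and 0.02 in TCN1_OE, and that of the tubulin and microtubule genes was 0.0208 in NC and -0.10 in TCN1_OE. The difference between the lines was not tested, since it leaves no residual degrees of freedom. Each group had 2 libraries, so no search for a library that stands apart within its group was made.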

How the results depend on the processing

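The counts of called genes in each direction stayed within 1.5 times those reported with RLE and upper-quartile factors and both other filters. They did so with thinning to equal depth and the gene length correction too. At most 1 of the named genes that were tested lost its call in any of these fits. The filter at a mean of 1 FPKM left out NDUFS1, GAA and TGM1, at means of 0.55, 0.57 and 0.79 FPKM. DESeq2 called 78 higher and 385 lower in replicate 1; all 123 genes named kept their direction in it and 42 lost the call. Limma on log2(FPKM + 0.5) called 0 and 0, with 3295 genes at an unadjusted p under 0.05. The paired design rests on line as the block: with no line block and no replicate block the counts were 0 and 0, with 1293 genes at an unadjusted p under 0.05. Leaving out 1 library needs a fit without the line block, in which the difference between the lines enters the log2 fold change and the spread. A turned sign in such a fit can come from the lines alone, so it does not show dependence on the library left out. With NC replicate 1 left out, 3 genes were called higher and 3 lower; leaving out the other NC library left 0 and 6. Dropping the first TCN1_OE library left 10 and 4, and dropping the second left 3 and 11. In those fits KRT13 turned to 0.091 without NC replicate 1 and to 0.16 without TCN1_OE replicate 2, HSP90AA1 to -0.037 without NC replicate 1 and TUBB4B to 0.054 without NC replicate 2.

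The GC correction gave 130 genes higher and 101 lower. Of the 123 genes named, it left 38 unchanged in direction and call and took the call alone from 70. It turned the sign of KRT14 (0.039), KRT5 (0.0096), PKP3 (0.014), FSCN1 (0.00025), KRT13 (0.029), WNT10A (0.071), CTSD (0.036), JUNB (0.051), CYC1 (0.039), TK1 (0.0055), PTBP1 (0.067), HSPB1 (0.024), TNFAIP2 (0.027), TUBB4B (0.094) and SFN (0.042), all on the log2 scale. With transcript length corrected as well, a setting chosen after seeing the data, 86 were higher and 84 lower, and the sign turned for PLEC (0.024), KRT14 (0.012), KRT5 (0.0042), PKP3 (0.013), KRT13 (0.0032), JAG2 (0.0014), WNT10A (0.066), CTSD (0.0195), JUNB (0.028), CDC25B (0.0057), PTBP1 (0.072), TNFAIP2 (0.039), TUBB4B (0.066) and SFN (0.0034). With both corrected, 30 of the 123 genes kept direction and call and 79 lost the call alone. Both fits differ from the one reported in the offset and in testing only genes with a GC value. Of 36 list medians, 28 kept their sign with GC corrected and 26 with both. In the fits that leave out 1 library, 24 kept their sign without NC replicate 1 and 30 without NC replicate 2. Without TCN1_OE replicate 1, 30 kept their sign, and without TCN1_OE replicate 2, 25 did. The directions of some list medians thus depend on the GC offset. Fits that leave out 1 library cannot show whether they depend on single libraries, since the difference between the lines enters the estimate. Depth limits the genes of at least 2-fold change, 51 of 59 of which had a mean under 100 counts per library.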
